A study of Mus musculus with 17 samples.

Results

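The levels of 6 cathepsin transcripts, Ctsa, Ctsb, Ctsd, Ctsf, Ctsk and Ctsl, were examined in the diaphragm, the muscle that drives breathing, of 17 mice. The genes were chosen by symbol, as cathepsins other than those that the study singled out from the same mice, so results of these mice shaped the set. They are 6 of the 47643 genes in the table and 6 of the 13305 genes tested, which had at least 1 TPM (a share of all transcripts, scaled to a fixed sum) in at least 3 mice. All mice were males of the C57BL/6J strain, 4 months old. Control mice (n = 5) had no tumor and were given mock injections of saline with albumin, and Control + rFibcd1 mice (n = 5) had no tumor and were given rFibcd1, a recombinant form of Fibcd1, which is a muscle-secreted protein with a fibrinogen-like domain. LLC mice (n = 3) carried tumors of Lewis lung carcinoma cells, an established mouse line that wastes muscle in its host, and were given mock injections, while LLC + rFibcd1 mice (n = 4) carried the same tumors and were given rFibcd1. All injections were made into the peritoneal cavity near the end of tumor growth, and the tumors grew under the skin from 1 transplanted line, which limits the model to that line. The comparisons ask whether the tumor, and rFibcd1 with or without it, went with other levels of these transcripts.

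Cathepsins are proteases of the lysosome, the acidic compartment in which cells break down proteins that arrive by endocytosis or autophagy. They are made as inactive proenzymes, are carried to the lysosome largely by mannose 6-phosphate receptors, and those that are cysteine proteases are held in check outside it by cystatins. In wasting muscle, lysosomal breakdown works beside the ubiquitin-proteasome pathway, and Ctsl is among the transcripts best known to rise in atrophying fibers. Ctsa encodes a serine carboxypeptidase that also protects beta-galactosidase and neuraminidase, Ctsd an aspartic protease, and the other 4 genes encode cysteine proteases of the papain family. Ctsb and Ctsl are made in nearly all cells, Ctsf carries a cystatin-like domain in its propeptide, and Ctsk degrades collagen and is best known from bone-resorbing osteoclasts.

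Whole tissue was sequenced, so the level of a gene could not be assigned to muscle fibers or to any other cell, and fewer cells of a type cannot be told apart from less RNA per cell. The fiber genes Acta1 and Ckm were at 19855 and 4216 TPM or more in each mouse. These levels go with skeletal muscle and do not tell the diaphragm from other muscles. Each of the 6 cathepsins was above 1 TPM in 17 of 17 mice. Depth, estimated from the steps between low values, was 50.7 to 54.6 (in units of 1000000 reads) a mouse, and the least covered of the 6 genes, Ctsk, rested on about 242 to 496 reads a mouse. Mitochondrially encoded transcripts took 41.3% to 50.4% of TPM, and since TPM are shares of a fixed sum, this share moves the values of all other genes. It was 41.3% to 44.3% in LLC and 45.9% to 48.4% in Control, without overlap, and the number of genes at 1 TPM or more, 12763 to 13413 in LLC and 11798 to 12473 in Control, did not overlap either. The part of the number of genes detected in the differences below was not tested. For the mitochondrial share, values from a fit without mitochondrially encoded genes are given below. The library of Control + rFibcd1 replicate 1 stood apart by its macrophage transcripts, with 1896 TPM summed over 11 macrophage markers against 262 to 561 TPM in the other mice of its group. Lyz2, which neutrophils also make, gave 1459 of the 1896 TPM, and the other 10 markers summed to 437 TPM in this mouse against 107 to 208 TPM in the rest of the group. Calls that changed without this library are given with and without it.

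Of the 6 genes, 5 had a promoter window (250 bases before to 50 after an annotated start site) in the RefSeq table on GRCm38.p6, Ctsb being the exception. The windows were searched on both strands for TCACGTGA, the core of the element bound by TFEB, a transcription factor that drives lysosomal genes, and for the shorter TCACGTG and CACGTG, both of which lie inside it. TCACGTGA was found at Ctsa and Ctsd, 2 of the 5 genes, and in 1.12% of the 27025 genes with a window. CACGTG was found at 4 of the 5 genes, Ctsk being the exception, and in 8.09% of all genes. The stretches that hold the letters are shown because the 5 genes differed in them, Ctsk holding none. They are given in the direction of each gene and with the longest match in capitals.
Ctsa, chr2:164833749-164833778, plus strand: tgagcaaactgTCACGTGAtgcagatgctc
Ctsa, chr2:164833766-164833795, plus strand: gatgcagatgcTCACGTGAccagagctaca
Ctsd, chr7:142387908-142387937, minus strand: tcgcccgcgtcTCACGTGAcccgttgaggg
Ctsd, chr7:142388048-142388077, minus strand: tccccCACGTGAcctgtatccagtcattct
Ctsf, chr19:4855074-4855103, plus strand: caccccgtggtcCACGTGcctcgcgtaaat
Ctsl, chr13:64370739-64370768, minus strand: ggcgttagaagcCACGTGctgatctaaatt

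Ctsa has 2 windows, and the one farther upstream (chr2:164832622-164832921), at the annotated 5′ end of the gene, held none of the motifs. In the other, the 2 copies straddle the start site, with centres 9 bases before it and 8 bases after it, and both overlap an exon of Ctsa in GENCODE vM21. The full match at Ctsd lies 95 bases before the start site, over a Ctsd exon of a longer annotated transcript, and the second Ctsd match reads TCACGTG on the opposite strand, 242 bases before it. The Ctsf and Ctsl matches lie 76 and 233 bases before their start sites. Among 22 genes of the lysosomal membrane and its proton pump with a window, 6 held TCACGTGA and 8 held CACGTG, among 22 genes of other lysosomal enzymes 2 and 6 did, among 9 partner and processing genes 2 and 5, among 14 other cathepsin genes 0 and 1, and among 12 inhibitor genes 0 and 0. A match is a description of the letters and not a bound site, and no match says only that the letters are not in the window.

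The levels of the 6 genes spanned a wide range, in the order Ctsd, Ctsb, Ctsl, Ctsf, Ctsa and Ctsk. Ctsd was at 527 ± 36.6 TPM in Control (SD, n = 5) and ranked 150 of the 13305 genes by its mean over all mice. Ctsb and Ctsl were at 147 ± 9.90 and 139 ± 7.03 TPM in Control, and their order did not hold within mice, as Ctsb was above Ctsl in 8 of 10 tumor-free and 5 of 7 tumor-bearing mice. Ctsf and Ctsa were at 35.5 ± 2.79 and 30.3 ± 1.73 TPM in Control, and Ctsk was lowest at 10.3 ± 1.82 TPM. The 6 transcripts together came to 889.8 ± 43.0 TPM in Control, of which Ctsd made up 59.2% ± 1.77. Between mice of a group, the SD on the log2(TPM + 1) scale was 0.09 for Ctsf, 0.10 for Ctsa, 0.11 for Ctsd, 0.12 for Ctsl, 0.19 for Ctsb and 0.33 for Ctsk, against a median of 0.15 over all genes tested.

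**Figure D1:**
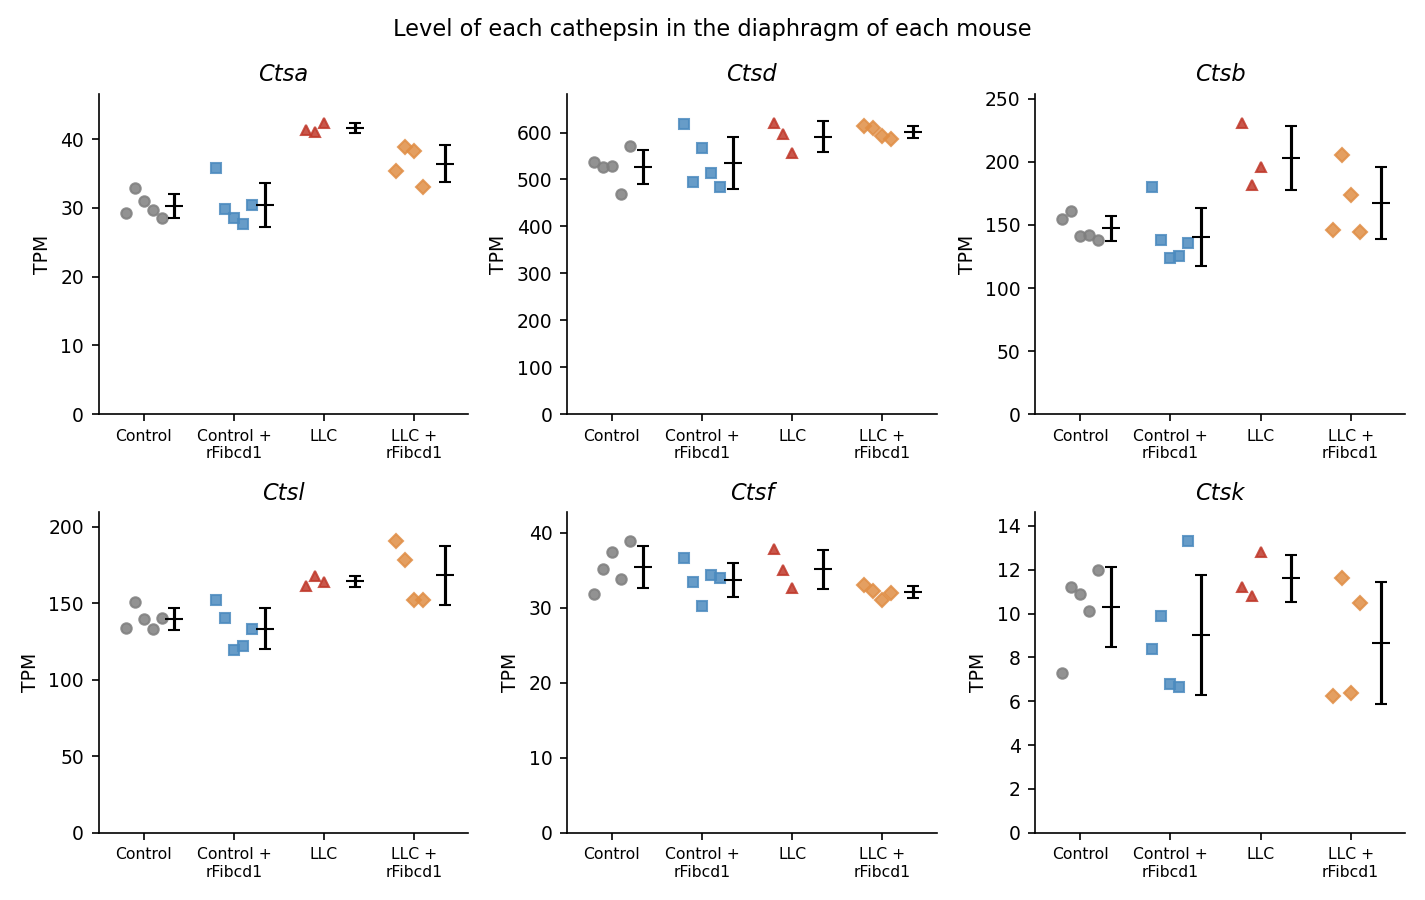
Level of each of the 6 cathepsins (y axis, TPM, from 0) in each mouse, by group (x axis). Each symbol is a mouse, and the bar beside it gives the mean and SD of the group. Ctsa, Ctsb and Ctsl lie higher in each LLC mouse than in any Control mouse, while Ctsk spreads from 6.24 to 13.3 TPM with overlap between all groups.

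Ctsa (GRCm38, chr2:164832873-164841032, plus strand), the carboxypeptidase, was at 29.2, 32.9, 31.0, 29.7 and 28.6 TPM in the 5 Control mice and at 35.8, 29.8, 28.6, 27.6 and 30.4 in the 5 Control + rFibcd1 mice. It was at 41.3, 41.1 and 42.4 TPM in the 3 LLC mice and at 35.4, 38.9, 38.3 and 33.1 in the 4 LLC + rFibcd1 mice. The LLC mice were thus above all mice of the other 3 groups, and the LLC + rFibcd1 mice lay between LLC and Control, touching neither, but overlapped Control + rFibcd1 through replicate 1 of that group. Its exons overlap those of Pltp and Neurl2, which lie on the opposite strand. Whether the counting used strand is not clear, so reads of these neighbors may enter its value.

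Ctsd (chr7:142375911-142388038, minus strand), the aspartic protease, was at 537, 527, 529, 469.8 and 572 TPM in Control and at 618, 495, 566, 514 and 483 in Control + rFibcd1. It was at 621, 597 and 556 TPM in LLC and at 614, 610.2, 593 and 587 in LLC + rFibcd1. The 4 LLC + rFibcd1 mice were all above the highest Control mouse, between 587 and 614 TPM, whereas the LLC mice overlapped both tumor-free groups. Its exons overlap those of Gm49369 on the same strand, so that reads could be divided between the 2 gene models.

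Ctsb (chr14:63122462-63145923, plus strand), a cysteine protease that also trims dipeptides from protein ends, was at 155, 161, 141, 142 and 138 TPM in Control and at 180.1, 138, 124, 125 and 136 in Control + rFibcd1. It was at 231, 182 and 196 TPM in LLC and at 146, 205, 174 and 144 in LLC + rFibcd1. Each LLC mouse was above every tumor-free mouse, including the outlying Control + rFibcd1 replicate 1. The LLC + rFibcd1 mice split, with replicates 2 and 3 above all Control mice and replicates 1 and 4 among them. Part of its exons overlaps Fdft1, which lies on the opposite strand.

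Ctsl (chr13:64359337-64370890, minus strand), an endopeptidase, was at 134, 151, 139.8, 133 and 140.0 TPM in Control and at 152, 140.4, 119.6, 122 and 133 in Control + rFibcd1. It was at 161, 168 and 164 TPM in LLC and at 190.5, 178, 152 and 152 in LLC + rFibcd1. All 7 tumor-bearing mice were above all 5 Control mice, and 5 of them were above every tumor-free mouse. Its exons overlap the antisense gene Gm47123 and the processed pseudogene Gm49230, so its value shares their uncertainty.

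Ctsf (chr19:4855130-4860918, plus strand) was at 31.9, 35.2, 37.4, 33.9 and 38.9 TPM in Control and at 36.6, 33.4, 30.2, 34.4 and 34.0 in Control + rFibcd1. It was at 37.8, 35.1 and 32.6 TPM in LLC and at 33.1, 32.3, 31.1 and 32.0 in LLC + rFibcd1. All groups overlapped, and each LLC + rFibcd1 mouse was below the Control mean of 35.5 TPM.

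Ctsk (chr3:95499256-95509362, plus strand), the collagen-degrading protease, lies beside Ctss (chr3:95526786-95556403), the cathepsin of antigen-presenting cells. It was at 7.29, 11.2, 10.9, 10.1 and 12 TPM in Control and at 8.40, 9.87, 6.78, 6.66 and 13.3 in Control + rFibcd1. It was at 11.2, 10.8 and 12.8 TPM in LLC and at 6.24, 11.6, 6.36 and 10.5 in LLC + rFibcd1. The LLC mice were close together, while the LLC + rFibcd1 mice fell into a low pair and a high pair that spanned nearly the whole range.

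With the tumor alone, 3 of the 6 cathepsins rose. In LLC against Control, Ctsa went from 30.3 ± 1.73 to 41.6 ± 0.700 TPM and Ctsb from 147 ± 9.90 to 203 ± 25.3 TPM (SD, n = 5 and n = 3), increases of 37.3% and 37.6%. Ctsl went from 139 ± 7.03 to 164 ± 3.54 TPM, an increase of 17.9%. On the log2(TPM + 1) scale, Ctsa rose by 0.45 ± 0.074 (SE, adjusted p = 0.00734), Ctsb by 0.45 ± 0.13 (adjusted p = 0.0182) and Ctsl by 0.24 ± 0.084 (adjusted p = 0.0395), by limma with Benjamini-Hochberg adjustment over all genes tested. Ctsd (0.17 ± 0.075, adjusted p = 0.0908), Ctsk (0.17 ± 0.22, adjusted p = 0.568) and Ctsf (-0.01 ± 0.068, adjusted p = 0.903) did not pass, with 95% intervals of 0.01 to 0.33, -0.31 to 0.65 and -0.16 to 0.13. Without Control + rFibcd1 replicate 1, which enters the estimate of the spread only, Ctsd passed too (0.17, adjusted p = 0.0448), and 39.5% of all genes passed.

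These counts have to be read against the whole table. An adjusted p under 0.05 was reached by 35.8% of all genes in LLC against Control, and 29.7% were higher. Values without overlap, with LLC above Control, were found for Ctsa, Ctsb and Ctsl and for 33.6% of all genes. The median gene was higher by 0.16, so Ctsa and Ctsb were each 0.29 above the median gene, Ctsl 0.08 above it, Ctsd and Ctsk 0.01 above it and Ctsf 0.17 below it (relative differences 0.29, 0.29, 0.08, 0.01, 0.01 and -0.17). Under other scalings (median ratio, quantile, without mitochondrially encoded genes) Ctsa was higher by 0.27, 0.28 and 0.34 and Ctsb by 0.27, 0.31 and 0.34, and both still passed. Ctsl was higher by 0.05, 0.07 and 0.13 and no longer passed, Ctsd was at -0.02, 0.09 and 0.06, Ctsk at 0.00, -0.08 and 0.07 and Ctsf at -0.19, -0.18 and -0.12. The share of higher genes among all calls went from 83.2% to 52.7%, 32.2% and 62.9% under these scalings. Calls were lost when the LLC group was cut to 2 mice. Without LLC replicate 3, 0 of the 6 genes passed, with Ctsa at 0.43, Ctsb at 0.48 and Ctsl at 0.24 (adjusted p = 0.0569, 0.0744 and 0.114). Without LLC replicate 1, Ctsa alone passed (0.45, adjusted p = 0.0205), with Ctsb at 0.36 and Ctsl at 0.25 (adjusted p = 0.0884 and 0.0807). Of all genes, 0.180% passed without LLC replicate 3 and 17.1% without LLC replicate 1. Ctsl lost its call in 7 of the 17 fits that each left out a mouse, and with Dunn's rank test adjusted over all genes, 0 of the 6 and 0 of all genes passed. The study used that kind of test, but its methods name no adjustment over genes, and without one 3 of the 6 and 37.5% of all genes passed.

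**Figure D2:**
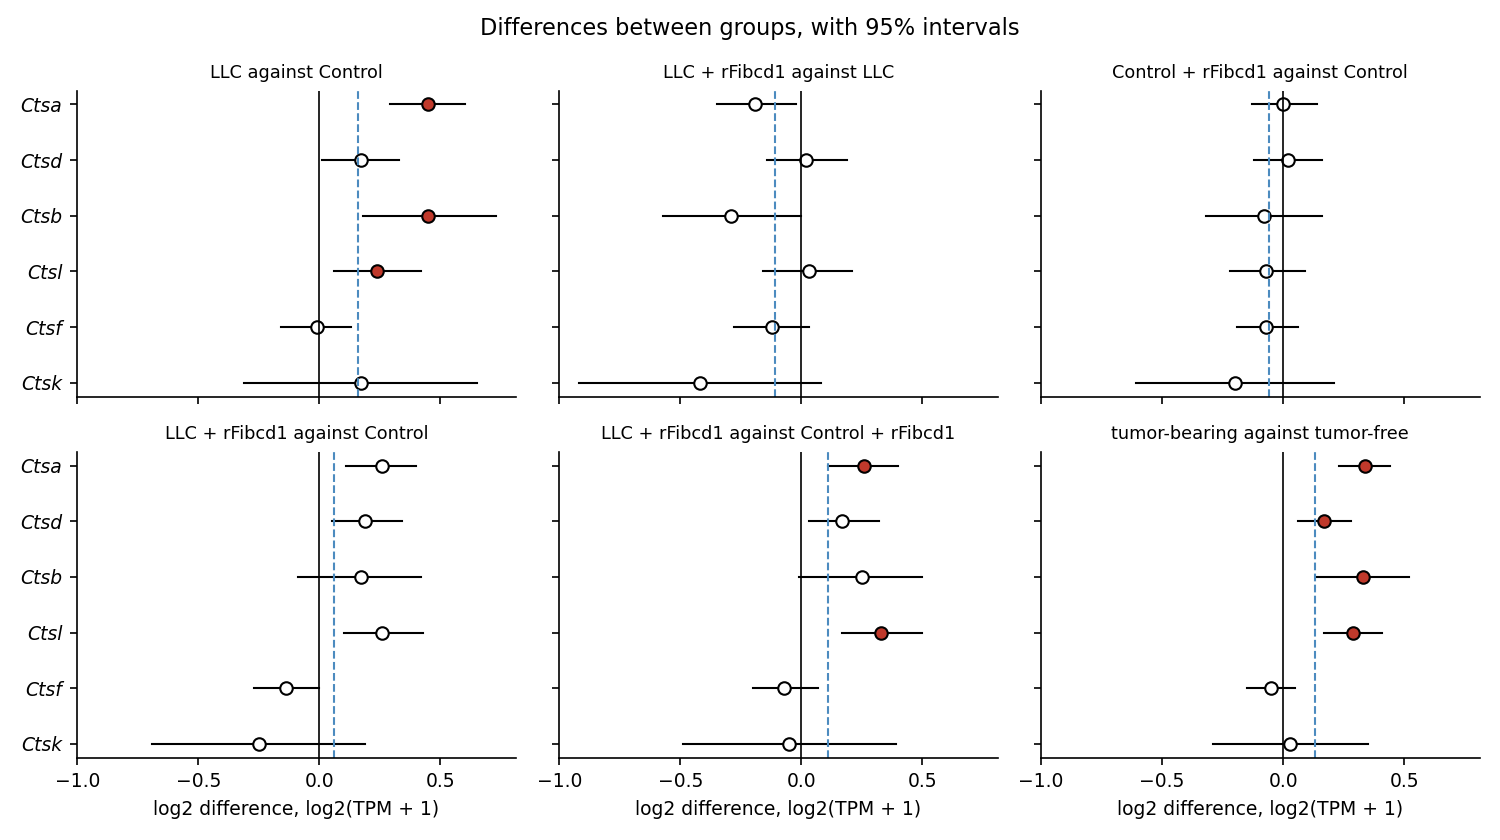
Difference in each cathepsin (rows) in 6 comparisons (panels), on the log2(TPM + 1) scale (x axis), with 95% intervals as lines. Filled points have an adjusted p under 0.05, and the dashed line is the median of all 13305 genes. Ctsa, Ctsb and Ctsl are filled in LLC against Control, and in the panels of LLC + rFibcd1 against LLC and Control + rFibcd1 against Control no point is filled. Under median-ratio scaling Ctsd in LLC against Control turns to -0.02.

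With rFibcd1 in tumor-bearing mice, none of the 6 genes passed. In LLC + rFibcd1 against LLC, Ctsa was at 36.4 ± 2.68 TPM against 41.6 ± 0.700 (SD, n = 4 and n = 3), a log2 difference of -0.19 ± 0.077 (adjusted p = 0.205, limma), and the 4 mice were all below the 3 LLC mice, as were the values of 9.30% of all genes. Ctsb was at 167 ± 28.8 against 203 ± 25.3 TPM (-0.29 ± 0.14, adjusted p = 0.221) and Ctsk at 8.69 ± 2.80 against 11.6 ± 1.04 TPM (-0.42 ± 0.23, adjusted p = 0.262). Ctsf was at 32.1 ± 0.829 against 35.1 ± 2.58 TPM (-0.12 ± 0.071, adjusted p = 0.273). Ctsd and Ctsl were at 601 ± 13.1 against 591 ± 32.8 TPM and 168 ± 19.3 against 164 ± 3.54 TPM (0.02 ± 0.078 and 0.03 ± 0.088, adjusted p = 0.844 and 0.853). Their 95% intervals ran from -0.14 to 0.19 for Ctsd and from -0.16 to 0.21 for Ctsl. Of all genes, 0.113% had an adjusted p under 0.05 here. At an unadjusted p under 0.05, 1 of the 6 genes passed, Ctsa, and 22.7% of all genes did. The median gene was lower by 0.11 (log2 difference -0.11), which leaves Ctsk at -0.31, Ctsb at -0.17, Ctsa at -0.07, Ctsf at -0.01 and both Ctsd and Ctsl at 0.14 relative to it. Under median-ratio scaling Ctsd and Ctsl were both at 0.15 (adjusted p = 0.344 and 0.291). No setting run, Dunn's test included, called any of the 6 in this comparison.

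In mice without a tumor, none of the genes tested passed with rFibcd1, so that 0% had an adjusted p under 0.05 in Control + rFibcd1 against Control by limma, and 4.39% had an unadjusted p under 0.05. None of the 6 cathepsins passed at either level, and Dunn's test called 0. The differences ran from -0.20 ± 0.19 for Ctsk (95% interval -0.61 to 0.21) to 0.02 ± 0.065 for Ctsd (-0.12 to 0.16). Ctsa was at 30.4 ± 3.18 against 30.3 ± 1.73 TPM (0.00 ± 0.064, 95% interval -0.13 to 0.14). Without Control + rFibcd1 replicate 1, Ctsb was at -0.17 instead of -0.08 and Ctsl at -0.12 instead of -0.07, with an adjusted p of 0.549 for both.

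The interaction asks whether the difference with rFibcd1 is itself different between tumor-bearing and tumor-free mice. No gene passed it by limma (0% with an adjusted p under 0.05, 8.58% with an unadjusted p under 0.05), and 0 of the 6 cathepsins had an unadjusted p under 0.05. The largest in size were Ctsk at -0.22 ± 0.30, Ctsb at -0.21 ± 0.18 and Ctsa at -0.19 ± 0.10 (adjusted p = 0.804, 0.694 and 0.632). A difference between the responses of the 2 kinds of mice was therefore not detected in the 6 genes with these numbers of mice. Under median-ratio scaling and under quantile normalization, 1 gene of all those tested passed in each, outside the 6.

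The treated tumor-bearing mice were next set beside each tumor-free group. In LLC + rFibcd1 against Control, 0 of the 6 genes passed, as against 3.08% of all genes, and 4 of the 6 (19.9% of all genes) had an unadjusted p under 0.05. Ctsa and Ctsl came nearest, at 0.26 ± 0.068 (adjusted p = 0.0535) and 0.26 ± 0.077 (adjusted p = 0.0747, limma), and Ctsd was at 0.19 ± 0.069 (adjusted p = 0.139). For these 3 genes, all 4 treated mice were above all 5 Control mice, which was the case for 5.96% of all genes. Ctsa passed in this comparison under each of the 3 other scalings (adjusted p = 0.0228, 0.0445 and 0.0497), and without Control + rFibcd1 replicate 1 Ctsa and Ctsl both did. Ctsf was at -0.14 ± 0.062 (adjusted p = 0.243) and Ctsk at -0.25 ± 0.21 (adjusted p = 0.514).

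In LLC + rFibcd1 against Control + rFibcd1, 2 of the 6 genes rose, Ctsl by 0.33 ± 0.077 (adjusted p = 0.0184) and Ctsa by 0.26 ± 0.068 (adjusted p = 0.0342, limma), while 8.06% of all genes passed and 7.02% were higher. Ctsl went from 133 ± 13.5 to 168 ± 19.3 TPM and Ctsa from 30.4 ± 3.18 to 36.4 ± 2.68 TPM (SD, n = 5 and n = 4). Without Control + rFibcd1 replicate 1, 4 genes rose, with Ctsb at 0.34 (adjusted p = 0.0351) and Ctsd at 0.23 (adjusted p = 0.0203) beside Ctsa at 0.31 and Ctsl at 0.38. The share of all genes called in that fit is not given here. In LLC against Control, leaving out this mouse took the share from 35.8% to 39.5%. Without LLC + rFibcd1 replicate 2, and under each of the 3 other scalings, 0 passed. This comparison shares no mouse with LLC against Control, and Ctsa and Ctsl were called in both. The calls came from the same model of all groups, with a shared estimate of the spread, so they are not independent. When only the groups compared here were fitted, neither gene passed (Ctsa adjusted p = 0.129, Ctsl adjusted p = 0.102, limma). The share of all genes called in both comparisons is not given here.

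All 7 tumor-bearing mice were also compared with all 10 tumor-free mice. This contrast shares its mice with those above. Here 4 of the 6 cathepsins rose, and 44.8% of all genes passed, and 38.8% of all genes passed with a higher level. Ctsa went from 30.3 to 38.6 TPM (0.34 ± 0.050, adjusted p = 0.000664), Ctsl from 136 to 167 TPM (0.29 ± 0.057, adjusted p = 0.00260), Ctsb from 144 to 182 TPM (0.33 ± 0.087, adjusted p = 0.00914) and Ctsd from 531 to 597 TPM (0.17 ± 0.050, adjusted p = 0.0144). All 7 mice were above the tumor-free mean for Ctsa, Ctsl and Ctsd, and 6 of 7 were for Ctsb. Each of these 4 calls held whichever of the 17 mice was left out. Relative to the median gene, which was higher by 0.13, Ctsa was at 0.21, Ctsb at 0.20, Ctsl at 0.16 and Ctsd at 0.04. The call of Ctsd was lost under each of the 3 other scalings (0.02, 0.10 and 0.09), and that of Ctsl under median-ratio scaling (0.14, adjusted p = 0.0591).

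Ctsf and Ctsk did not pass in this contrast. Ctsf was at 33.4 TPM in tumor-bearing and 34.6 in tumor-free mice (-0.05 ± 0.046, adjusted p = 0.405), which is -0.18 relative to the median gene. Under median-ratio scaling and quantile normalization it was called lower (-0.19, adjusted p = 0.0166, and -0.18, adjusted p = 0.0154), so whether Ctsf was level or lower depends on the scaling. Ctsk was at 9.94 and 9.65 TPM (0.03 ± 0.15, adjusted p = 0.886), and its 95% interval of -0.29 to 0.35 holds the increases of Ctsa, Ctsb, Ctsl and Ctsd alike.

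Ratios within a mouse do not depend on a scaling that multiplies all genes of the mouse by the same factor (quantile normalization does not), and the order of Ctsa and Ctsf differed between tumor-free and tumor-bearing mice. Ctsf was above Ctsa in 10 of 10 tumor-free mice, and Ctsa was above Ctsf in 7 of 7 tumor-bearing mice. The ratio of Ctsa to Ctsf was 0.915, 0.935, 0.829, 0.876 and 0.734 in Control and 0.978, 0.890, 0.946, 0.803 and 0.893 in Control + rFibcd1. It was 1.09, 1.17 and 1.30 in LLC and 1.07, 1.20, 1.23 and 1.04 in LLC + rFibcd1. No single member separated the 7 tumor-bearing from the 10 tumor-free mice, and 1.74% of all genes did so with higher values. Of the 15 pairs of the 6 genes this was the 1 pair whose ratio did, as did 1.81% of all pairs of the 13003 tested genes that were above 0 in every mouse. The ratios of 5 pairs separated LLC from Control, against 35.6% of all pairs, and those of 2 pairs separated LLC + rFibcd1 from Control + rFibcd1, against 6.82%. The pair was picked out after its values were seen and is given as a description with no test. Since the exons of Ctsa overlap other genes and those of Ctsf do not, part of the ratio may come from reads of those genes, which was not tested.

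**Figure D3:**
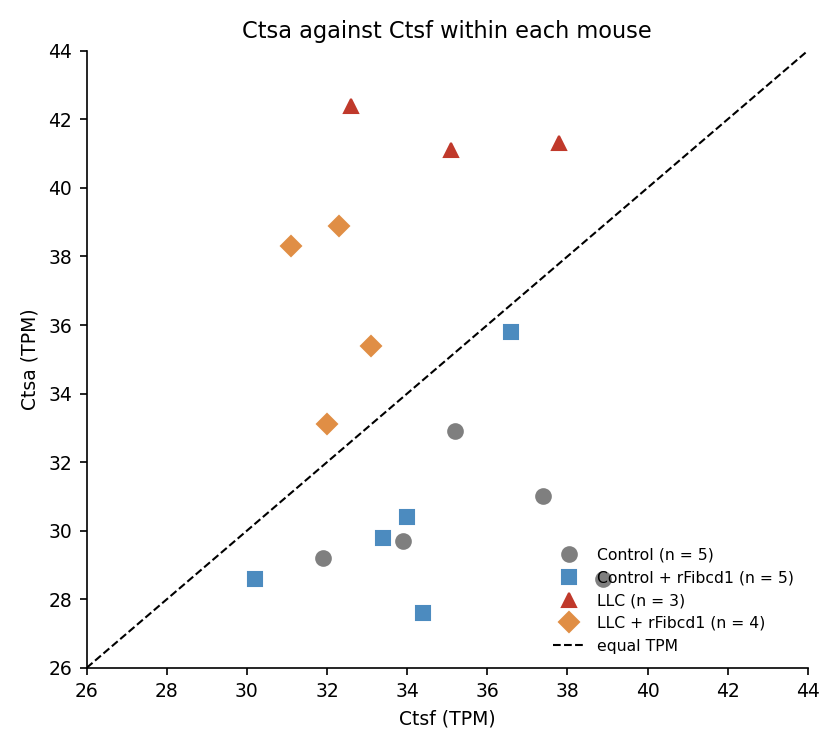
Level of Ctsa (y axis, TPM) against that of Ctsf (x axis, TPM) in each of the 17 mice, with the dashed line at equal levels and axes that start at 26 TPM. The 10 tumor-free mice lie below the line and the 7 tumor-bearing mice above it, the nearest being Control + rFibcd1 replicate 1 with a ratio of 0.978 and LLC + rFibcd1 replicate 4 with 1.04.

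The rise in Ctsa and Ctsb went with markers of cells other than fibers. The sum of 11 macrophage markers ranged from 340.1 to 694 TPM in Control, 262 to 1896 in Control + rFibcd1, 1051 to 1204 in LLC and 481 to 1169 in LLC + rFibcd1. In LLC against Control, 6 of the 11 rose, beside 29.7% of all genes. Under the 3 other scalings 2, 4 and 3 rose, beside 15.6%, 11.3% and 18.7% of all genes. Of the 6, Fcgr1 reached 1 TPM in 1 tumor-free mouse and was tested only because of its level in tumor-bearing mice. Of the other 10 markers, 5 rose. Across the 17 mice, the sum of the 11 markers had an r of 0.88 with Ctsb and 0.84 with Ctsa (on log2 values), 0.67 with Ctsl, 0.54 with Ctsd, 0.30 with Ctsk and 0.15 with Ctsf. Within groups, after the group means were removed, r was 0.86 with Ctsb and 0.92 with Ctsa. Without Control + rFibcd1 replicate 1 (a choice made after the data were seen), r was 0.93 with Ctsb and 0.92 with Ctsa over 16 mice and 0.78 and 0.85 within groups, and with Lyz2 left out of the sum instead it was 0.91 and 0.88 over all mice. In Control + rFibcd1 replicate 1, where the macrophage sum was highest, Ctsb and Ctsa were the highest of their group. These mice share the groups and the sum of TPM, and the part of macrophages in the level of either gene was not tested.

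Markers of other cell types were compared in the same way. Beside the counts below that rose in LLC, 29.7% of all genes rose, and 15.6%, 11.3% and 18.7% under the 3 other scalings. The sum of 7 B cell markers was 2.45 to 98.8 TPM in Control, 3.48 to 141 in Control + rFibcd1, 229.9 to 293 in LLC and 18.5 to 287 in LLC + rFibcd1, with 7 of 7 rising in LLC (5, 7 and 3 under the other scalings, and 1 with a pseudocount of 0.1 TPM), and its r was 0.88 with Ctsb and 0.84 with Ctsa. The sum of 5 adipocyte markers was 305 to 1708, 369.5 to 2443, 1064 to 5121 and 492 to 2719.5 TPM in the same order, with 0 of 5 called, and its r with Ctsb was 0.90. The sum of 9 myofiber markers was 58191 to 63018 TPM in Control, 56819.9 to 64002 in Control + rFibcd1, 49759.7 to 53091 in LLC and 51652 to 59862 in LLC + rFibcd1, with 4 of 9 falling in LLC (5, 2 and 5 under the other scalings, where 14%, 23.9% and 11% of all genes fell, against 6.02% as fitted), and its r was -0.87 with Ctsb and -0.89 with Ctsa. Neutrophil markers (5 of 5 tested rose in LLC, and 4, 4 and 5 under the other scalings, Retnlg and Cxcr2 being tested only because of their level in tumor-bearing mice) had their highest r with Ctsd, at 0.81 over all mice and 0.60 within groups, with sums of 1.84 to 14.3, 2.87 to 78.4, 45.0 to 106 and 55.0 to 206 TPM. Mesothelial markers, 59.0 to 149, 23.1 to 136, 98.4 to 176 and 60.3 to 165 TPM with 0 of 5 called, had an r of 0.73 with Ctsb and 0.70 with Ctsk. No marker in these lists was at 0 in all mice, and the part of these cells in the 6 cathepsins was not tested.

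Ctsk followed collagen genes across the mice. The sum of 7 fibroblast markers was 743 to 1030.3 TPM in Control, 591 to 1066 in Control + rFibcd1, 1106 to 1149 in LLC and 662 to 1259 in LLC + rFibcd1, and 0 of 7 were called in LLC against Control. Its r with Ctsk was 0.89 over all mice and 0.90 within groups, and with the other 5 cathepsins it was at most 0.60. The gene most like Ctsk was Col1a2, a chain of type I collagen, with r = 0.97 over 17 mice and 0.97 within groups. The low pair of LLC + rFibcd1 mice in Ctsk, 6.24 and 6.36 TPM, had the Col1a2 levels 31.8 and 35.7 TPM, and the high pair, 11.6 and 10.5 TPM, had 60.5 and 56.8 TPM. Osteoclast markers were nearly absent, with Calcr, Oscar, Ocstamp, Dcstamp and Atp6v0d2 at no more than 0.407 TPM in any mouse, although Acp5 and Mmp9, which macrophages and neutrophils also make, reached 88.4 and 8.26 TPM. The 7 osteoclast markers summed to 9.72 to 37.0 TPM in Control, 10.7 to 42.8 in Control + rFibcd1, 34.0 to 95.4 in LLC and 14.7 to 50.5 in LLC + rFibcd1, and this sum had an r of 0.10 with Ctsk and 0.94 with Ctsb. Acp5 and Mmp9, the 2 tested, rose in LLC against Control, as did 29.7% of all genes.

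**Figure D4:**
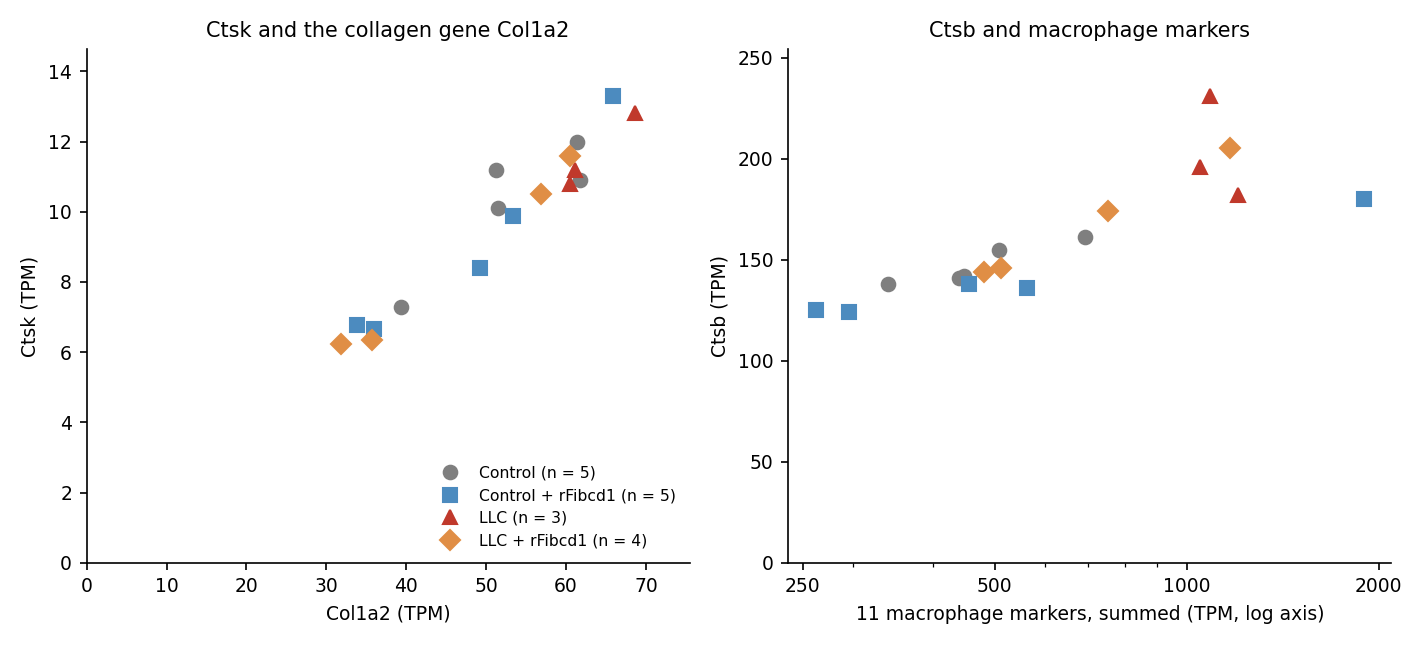
Left, level of Ctsk against that of Col1a2 (both TPM, from 0). Right, level of Ctsb (TPM, from 0) against the sum of 11 macrophage markers (TPM, log axis). Each symbol is 1 of 17 mice, by group. Ctsk follows Col1a2 across all 4 groups (r = 0.97), and the 5 mice with over 1000 TPM of macrophage markers have the highest Ctsb, Control + rFibcd1 replicate 1 having the most markers (1896 TPM) and the least Ctsb (180.1 TPM) among them.

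For each of the 6 genes, genes with the highest r over the 17 mice were listed, as a description of likeness on the log2(TPM + 1) scale. Ctsa was most like Igsf6, Ablim1 and Plp2 (r = 0.98, 0.98 and 0.97), and Ctsb most like Tapbp, Npc2 and Ifnar2 (r = 0.98, 0.98 and 0.97), of which Npc2 encodes a lysosomal cholesterol carrier. Ctsl was most like Cpne8, Rabac1 and Wash1 (r = 0.93, 0.92 and 0.91), and Ctsd most like Aifm2, Sun2 and Rxrb (r = 0.91, 0.89 and 0.89). Ctsk was most like Col1a2, Mfap4 and Col6a1 (r = 0.97, 0.94 and 0.93), all of the extracellular matrix. Ctsf had no gene as close, with Exoc4 and Ccbe1 at r = 0.81 and 0.75. The median r over all genes tested was 0.57 for Ctsa, 0.60 for Ctsb, 0.45 for Ctsl, 0.31 for Ctsd, 0.22 for Ctsk and 0.06 for Ctsf, so high values were common for the first pair. Among the 6 genes themselves, the closest pair was Ctsa and Ctsb (r = 0.90, 0.81 within groups), followed by Ctsa and Ctsl (r = 0.82, 0.62 within groups). Ctsa and Ctsf had an r of 0.01 over all mice and 0.23 within groups.

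Of 18 other cathepsin genes listed, 8 were tested, and all 8 rose in LLC against Control, with a median difference of 0.96 against 0.20 for the 6 genes here and 0.16 for all genes. Of these, Ctse and Ctsw reached 1 TPM in 1 and 0 tumor-free mice and so were tested only because of their level in tumor-bearing mice. The other 6 had a median of 0.83. All 8 also passed under each of the 3 other scalings. Without LLC replicate 3, 0 of the 8 passed, with a median of 0.76. Without LLC replicate 1, 4 of the 8 passed, with a median of 0.96, beside 17.1% of all genes. The largest were Napsa (2.28 ± 0.67) and Ctss (1.67 ± 0.53). Ctse was at 1.19, 1.89 and 10.7 TPM in the LLC mice, and its difference of 1.5 ± 0.44 was 0.76 without replicate 3. The smallest was Ctso (0.64 ± 0.18). All 8 are genes that the study singled out on these mice for their change, so neither their direction nor their size beside the 6 genes is independent evidence. In TPM the order was different. The gain from Control to LLC was from 147 to 203 TPM in Ctsb and from 527 to 591 TPM in Ctsd (the latter not called), against 30.8 to 94.9 TPM in Ctss and 48.3 to 91.5 TPM in Ctsz. In LLC + rFibcd1 against LLC, 0 of the 8 passed, and 4 had an unadjusted p under 0.05 (22.7% of all genes did). The median of the 8 was -0.70 against -0.16 for the 6 genes here and -0.11 for all genes. Ctse (-1.42 ± 0.46) and Ctsw (-0.81 ± 0.29), tested only because of their level in tumor-bearing mice, are among the 4 and enter this median. Without this pair, the values ran from -1.33 (Napsa) to -0.41 (Ctsc). Of the other 10, Ctsg was at most 0.159 TPM and Ctsj at most 0.0317 TPM, and the placental cathepsins Cts3, Cts6, Cts7, Cts8, Ctsll3, Ctsm, Ctsq and Ctsr were listed at 0 in all mice.

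**Figure D5:**
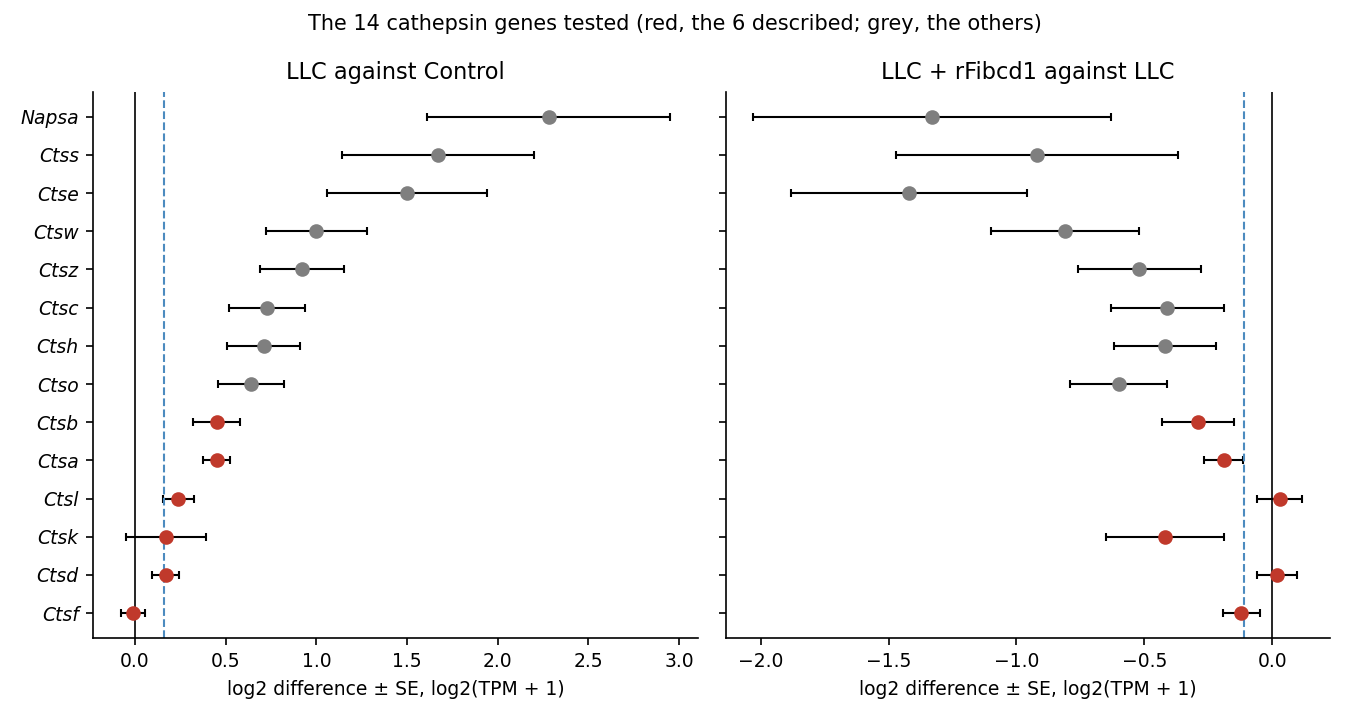
Difference in the 14 cathepsin genes tested (rows) in LLC against Control (left) and in LLC + rFibcd1 against LLC (right), on the log2(TPM + 1) scale (x axis), with SE as lines. Red points are the 6 genes described and grey points the other 8, which the study singled out for their change, and the dashed line is the median of all genes. On the left, the 6 genes lie between -0.01 and 0.45 and the other 8 between 0.64 and 2.28. With median-ratio scaling Ctsd on the left turns to -0.02.

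Among the inhibitors of cathepsins, 7 of 16 listed were tested and 4 rose in LLC against Control. Cst3, the secreted cystatin C, was at 496 ± 29.4 TPM in Control and rose by 0.17 ± 0.064 (adjusted p = 0.0478), about as much as the median gene (0.16), and it was at -0.01, 0.07 and 0.06 under median-ratio scaling, quantile normalization and without mitochondrially encoded genes. Cstb, the intracellular cystatin that binds Ctsb and Ctsl, went from 33.5 ± 6.18 to 57.3 ± 6.58 TPM (0.77 ± 0.19, adjusted p = 0.0128). Cst7, a cystatin of immune cells, and Stfa2l1, a stefin of neutrophils, rose by 1.21 ± 0.28 and 0.71 ± 0.21 (adjusted p = 0.0113 and 0.0214) from under 1 TPM. Neither of this pair reached 1 TPM in any tumor-free mouse, so they were tested only because of their level in tumor-bearing mice. Cst6 (0.07 ± 0.098), Kng1 (-0.58 ± 1.13) and Kng2 (0.11 ± 0.56) did not pass, and Cst6 and Kng2 changed sign with the scaling. Under the 3 scalings in the same order, 3, 2 and 3 inhibitors rose.

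The genes that carry, activate or bind these proteases were examined as well. Of 12 partners and processing genes, 9 rose in LLC against Control, with a median of 0.41. M6pr, a mannose 6-phosphate receptor, rose by 0.57 ± 0.13 (adjusted p = 0.0119), Glb1, the beta-galactosidase that Ctsa protects, by 0.79 ± 0.20 (adjusted p = 0.0140), and Galns, a sulfatase of the same complex, by 0.85 ± 0.22 (adjusted p = 0.0144). Of 28 other lysosomal enzymes, 19 rose, with a median of 0.55, among them Sgsh (0.67 ± 0.12), which degrades heparan sulfate. Of 27 genes of the lysosomal membrane and its proton pump, 15 rose, with a median of 0.25, and the pump subunits Atp6v0a1 (0.29 ± 0.064), Atp6v0c (0.31 ± 0.067) and Atp6ap2 (0.37 ± 0.086) had the smallest p. In these 3 lists 0 genes fell. Under median-ratio scaling, quantile normalization and without mitochondrially encoded genes, the partners that rose numbered 6, 5 and 7, the enzymes 17, 15 and 18, and the membrane and pump genes 4, 4 and 9, while Igf2r, the larger mannose 6-phosphate receptor, was called lower under quantile normalization and Ostm1, a subunit of a lysosomal chloride transporter, under each of the 3. Atp6v0a1 and Atp6v0c no longer passed under median-ratio scaling (0.12 for both). In the 3 lists 0 genes passed in LLC + rFibcd1 against LLC, where 4 of 12, 13 of 28 and 7 of 27 had an unadjusted p under 0.05, as did 22.7% of all genes.

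The transcription factors that drive lysosomal genes moved in both directions. Of 7 genes tested in the list of the TFEB family and its regulators, 1 rose and 1 fell in LLC against Control, with a median of -0.04. Tfeb fell by 0.17 ± 0.053 (adjusted p = 0.0235), from 17 ± 0.593 to 15 ± 0.753 TPM, and Tfe3 rose by 0.32 ± 0.11 (adjusted p = 0.0335), from 4.16 ± 0.182 to 5.45 ± 0.651 TPM. Rragc, a lysosomal GTPase that recruits TFEB, was at 0.27 ± 0.12 (adjusted p = 0.0933). Under the 3 other scalings Tfeb was still called lower (-0.35, -0.40 and -0.28) and Tfe3 no longer passed (0.17, 0.01 and 0.25), and in all 0 genes of this list rose and 3, 3 and 2 fell, beside 14%, 23.9% and 11% of all genes. The counts of genes that rose in LLC against Control stand beside 29.7% of all genes, and beside 15.6%, 11.3% and 18.7% under median-ratio scaling, quantile normalization and without mitochondrially encoded genes. The 4 of 27 membrane and pump genes under median-ratio scaling are thus no larger a share than that of all genes. Without LLC replicate 3, no gene of the pathway and marker lists passed in this comparison (0.180% of all genes did), while the medians of the partners, the enzymes and the membrane and pump genes were 0.40, 0.51 and 0.25. Without LLC replicate 1, 5, 11 and 6 genes of these 3 lists rose, beside 13.3% of all genes.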

How the data were processed

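RNA was sequenced from the diaphragm of 17 mice as 100-bp paired reads. The authors trimmed and filtered the reads, aligned them to GRCm38 (mm10) in CLC Genomics Workbench and deposited TPM per gene, in which reads are divided by gene length and scaled to a fixed sum. The labels and the methods of the study name different library kits, so strandedness is not clear, and the annotation release is not given in the sources used here. Groups came from the sample labels, and 0 columns of values had no sample.

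Genes that reached 1 TPM in 3 or more mice were kept, and log2(TPM + 1) was fitted by limma 3.58.1 under R 4.3.3 (4 groups in one model, 13 residual degrees of freedom, empirical Bayes with trend, two-sided, Benjamini-Hochberg adjustment over 13305 genes, threshold 0.05). It replaced the rank test of the study (Kruskal-Wallis and Dunn), which was kept as an alternative because groups are small. Because of the pseudocount of 1 TPM, log2 differences of weakly expressed genes are too small. Other alternatives were a pseudocount of 0.1 TPM, other filters and scalings, robust moderation, fits of the compared groups only, the replicate number as a block, leaving out each mouse and an exact permutation test. The fit was tested on simulated data. Depth was estimated from the steps of low TPM values and GENCODE vM21 lengths, and 80.8% to 83.5% of low values lay within 0.02 of a whole read. The labels name no date or batch.

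The 6 members, the gene lists and the tests were chosen with earlier results of these data known. Named were the 6 members, each tested gene among other cathepsins and inhibitors, the 3 genes with the smallest p in LLC against Control in each other pathway list, and the 3 genes with the highest r to each member. Some genes that this rule names are not reported here. Marker lists of 8 cell types are described by their sums, and 1 macrophage marker, Itgam, was not analysed here. Of all symbols, 94.6% matched GENCODE vM21.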

Additional observations from a re-analysis of the deposited data

Results flagged for a closer look

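Of 18 sets of values examined for a mouse far from the others of its group (6 genes in the 3 groups of 4 or 5 mice), 1 was marked. Ctsb in Control + rFibcd1 replicate 1 was at 180.1 TPM against 124 to 138 TPM in the other 4 mice of that group, a gap of 0.750 of the whole range (limit 0.71 for 5 mice). Chance marks about 1 in 20 such sets, so 1 of 18 is about what chance gives. The same mouse had 1896 TPM of macrophage markers, 85.8 TPM of Ctss and the highest Ctsa (35.8 TPM), Ctsd (618 TPM), Ctsf (36.6 TPM) and Ctsl (152 TPM) of its group, and the part of macrophages in these values was not tested.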

How the results depend on the processing

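The text counts the cathepsins, of 6, with an adjusted p under 0.05. In LLC against Control the count was 3, and it was 2 under the 3 scalings and with no filter on low values (Ctsl lost, adjusted p = 0.0560 with no filter), 0 with Dunn's test and ranged from 0 to 4 when a mouse was left out. In LLC + rFibcd1 against Control it was 0, and it was 1 with at least 1 TPM required in every sample, with median-ratio scaling, with quantile normalization and without mitochondrially encoded genes, 3 by the exact permutation test with no adjustment, and 0 to 2 when a mouse was left out. In LLC + rFibcd1 against Control + rFibcd1 it was 2, and it was 0 under the 3 scalings, 0 when only the groups compared were fitted, 0 with Dunn's test, and 0 to 4 when a mouse was left out. The summed level of the 6 genes was 944 TPM over all mice, and 1750.3 TPM without mitochondrially encoded genes. With a replicate block, the counts were 0, 0 and 1 in these comparisons in the same order, but the numbers do not pair the mice, since deviations of same-numbered mice had a median r of -0.061 over 22 pairs (-0.459 to 0.485). No call changed direction under any setting run. Of the results on single genes, 42 lost and 17 gained a call, and 1087 did neither. In LLC against Control, leaving out LLC replicate 3 took the share of all genes called from 35.8% to 0.180%. Of the list counts there, B cell markers went from 7 to 1 with a pseudocount of 0.1 TPM and to 3 with no filter on low values, and macrophage markers from 6 to 2 with no filter and to 9 when only the groups compared were fitted. When a Control or LLC mouse was left out, macrophage markers ranged from 0 (without Control replicate 3 or any LLC replicate) to 7. B cell markers ranged from 0 (without LLC replicate 1 or 3) to 7. The share of all genes called ranged from 0.180% to 37.6% in these fits. Ctsk rested on the fewest reads of the 6, and the part of depth in its spread was not tested.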
